A study of Homo sapiens with 12 samples.

Results

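The genes described are 36 genes of the lysosome and of autophagy. They were taken by symbol from the deposited expression table, where each of the 36 had 1 row among 60564, and all 36 passed the filter on low values. The RNA came from established cell lines of human pancreatic ductal adenocarcinoma, CFPAC-1 and BxPC-3, studied for the growth of primary cilia. Each line was sampled in normal culture (control) and, to induce cilia, without serum for 48 h (starved), with 3 libraries in each of the 4 groups. Ciliated cells made up 7% of control and 39% of starved CFPAC-1 cells, and 5% of control and 78% of starved BxPC-3 cells, per the series text. Cilium growth and loss of serum came together in every starved library, so they cannot be told apart. Each line is a tumour-derived culture without the stroma or immune cells of a tumour.

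The lysosome is the acidic compartment in which cells break down material. Soluble hydrolases (cathepsins, glycosidases, lipid-handling proteins) do the work, a proton pump (the V-ATPase) keeps the lumen acidic, and heavily glycosylated membrane proteins such as LAMP1 and LAMP2 line the wall. Autophagy brings the cell's own material there: the kinase ULK1 and the lipid kinase complex around BECN1 start a membrane, ATG8 proteins such as LC3B are attached to it, cargo receptors such as p62 (SQSTM1) bring in cargo, and the closed autophagosome fuses with the lysosome. When nutrients or growth factors run short, the kinase mTORC1 is turned down, and the transcription factors TFEB and TFE3 enter the nucleus and bind the CLEAR element, an E-box found near many lysosomal genes. Pancreatic ductal tumours are known for their high reliance on autophagy and on MiT/TFE factors. These factors are controlled largely by phosphorylation and location, which an RNA measurement does not show.

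The E-box core CACGTG and the longer TCACGTGA, which holds it, were looked for in the RefSeq promoters (250 bases before to 50 after a start, build GRCh38.p14); each motif is its own reverse complement, so both strands were read at once. A promoter was given for 27 of the 36 genes. CACGTG was found in 8 of the 27 (29.6%), against 8.77% of the 27305 genes with a promoter, and TCACGTGA in 4 of the 27 (14.8%), against 1.18%. LAMP1 held 6 CACGTG matches, CTSA, CTSF and MCOLN1 held 2 each, and ATP6V0D1, CD63, CTSD and NEU1 held 1 each. A match is a description of letters, not a bound site. The windows below show 1 match of each of the 8 genes with the bases around it, 30 bases in all, with the motif in capitals, read 5′ to 3′ on the gene's strand. They lie at chr13:113297199-113297228 (LAMP1, plus strand), chr16:67481199-67481228 (ATP6V0D1, minus), chr19:7522571-7522600 (MCOLN1, plus), chr20:45891298-45891327 (CTSA, plus), chr11:1763957-1763986 (CTSD, minus), chr11:66568640-66568669 (CTSF, minus), chr12:55729172-55729201 (CD63, minus) and chr6:31862930-31862959 (NEU1, minus). All lie before the RefSeq start; those of ATP6V0D1, CTSA, CTSD and CD63 also meet an exon of the gene that GENCODE annotates as untranslated in some transcript, and the other 4 meet no exon of their gene.
LAMP1: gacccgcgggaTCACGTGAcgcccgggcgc
ATP6V0D1: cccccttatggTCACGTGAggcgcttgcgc
MCOLN1: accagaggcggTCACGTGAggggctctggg
CTSA: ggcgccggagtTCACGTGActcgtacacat
CTSD: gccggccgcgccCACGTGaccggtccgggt
CTSF: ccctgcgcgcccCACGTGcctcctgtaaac
CD63: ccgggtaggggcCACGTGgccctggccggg
NEU1: atgctgcgtgatCACGTGggaggagatgag

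On starvation of CFPAC-1, with all libraries, CTSA and CD63 of these 8 genes rose, NEU1 fell, and the other 5 were not called, with differences of -0.78 to 0.30; without control 2 and 3 (below) none of the 8 was called. In BxPC-3 all 8 differences were positive, from 0.29 to 0.57, and none was called. Of all tested genes, 16.6% were called in CFPAC-1 with all libraries and 0.334% in BxPC-3. In BxPC-3 59.1% of all tested genes had a positive difference, and so did 27 of the 36 genes (75.0%). Whether the 8 genes differ from the rest of the 36 was not tested. CTSL, which had the largest difference of the 36 in CFPAC-1 with all libraries, held 0 CACGTG matches in its promoter; no match says only that these letters are not in this window.

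Values are FPKM, which scales mapped fragments by transcript length and by the library's total, and every difference is a difference of mean log2(FPKM + 1), a scale on which the change of weakly expressed genes is understated. A gene was called when its adjusted p was under 0.05 (limma, Benjamini-Hochberg adjustment over 12860 tested genes). FPKM is relative to the RNA of the library, so fewer cells with a transcript and less of it per cell cannot be told apart. The libraries labelled CFPAC-1 control 2 and 3 stood apart from the other 4 of that line. LDHB (a subunit of lactate dehydrogenase) was listed at 0 in those 4 and reached 177 and 186 FPKM in the other pair, control 2 and 3, and KRT19, a duct keratin, stood at 7.42 and 7.67 FPKM there against 254 to 627 in the 4. Over the 36 genes, the SD of the log2 difference between libraries was 1.14 and 1.16 for control 1 against control 2 and 3, and 0.310 between control 2 and 3. Whether these libraries hold the same cells as the other 4 was not tested, so in CFPAC-1 differences that rest on them starvation and a difference of cells cannot be told apart. CFPAC-1 results are therefore given with all libraries and without control 2 and 3, where the 1 remaining control is taken to vary as the other groups do. Library 1 also lay farther from 2 and 3 than these did from each other in each other group (SD 0.404 to 0.556 against 0.235 to 0.341), and no label says that libraries are separate cultures: p-values reflect the spread among libraries, which may be technical. Of the duct markers, KRT8, KRT18 and KRT19 were expressed in both lines, KRT7 stood at 395 to 586 FPKM in BxPC-3 and 0.340 to 2.01 in CFPAC-1, CDH1 at 38.2 to 61.0 and 0.180 to 0.892, and CFTR was at or near 0. Of 10 leukocyte markers, which bear on the macrophage-rich genes CD68 and CTSS, the summed level was 0.712 to 7.42 FPKM, with PTPRC, CD163 and AIF1 at or near 0.

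Summed over the 36 genes, the level was 925, 1701 and 1674 FPKM in CFPAC-1 control libraries 1 to 3 and 1526, 1975 and 1810 in the starved ones, and 1111, 909 and 886 FPKM in BxPC-3 controls and 1202, 1155 and 1104 in starved libraries. In BxPC-3 the starved sums were above control 2 and 3, and control 1 lay just above the lowest of them. PSAP, the precursor of the saposins that help break down sphingolipids, held 229 to 579 FPKM of the sum in CFPAC-1 and at most 2.13 in BxPC-3. Without it the sums were 696 to 1450 and 885 to 1200 FPKM. PSAP had the highest mean of the lumenal proteins other than cathepsins, CTSD of the cathepsins, CD63 of the membrane proteins, ATP6AP1 of the pump subunits, TFE3 of the transcription factors, ULK1 of the initiation proteins and SQSTM1 of the ATG8 and receptor group.

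**Figure D1:**
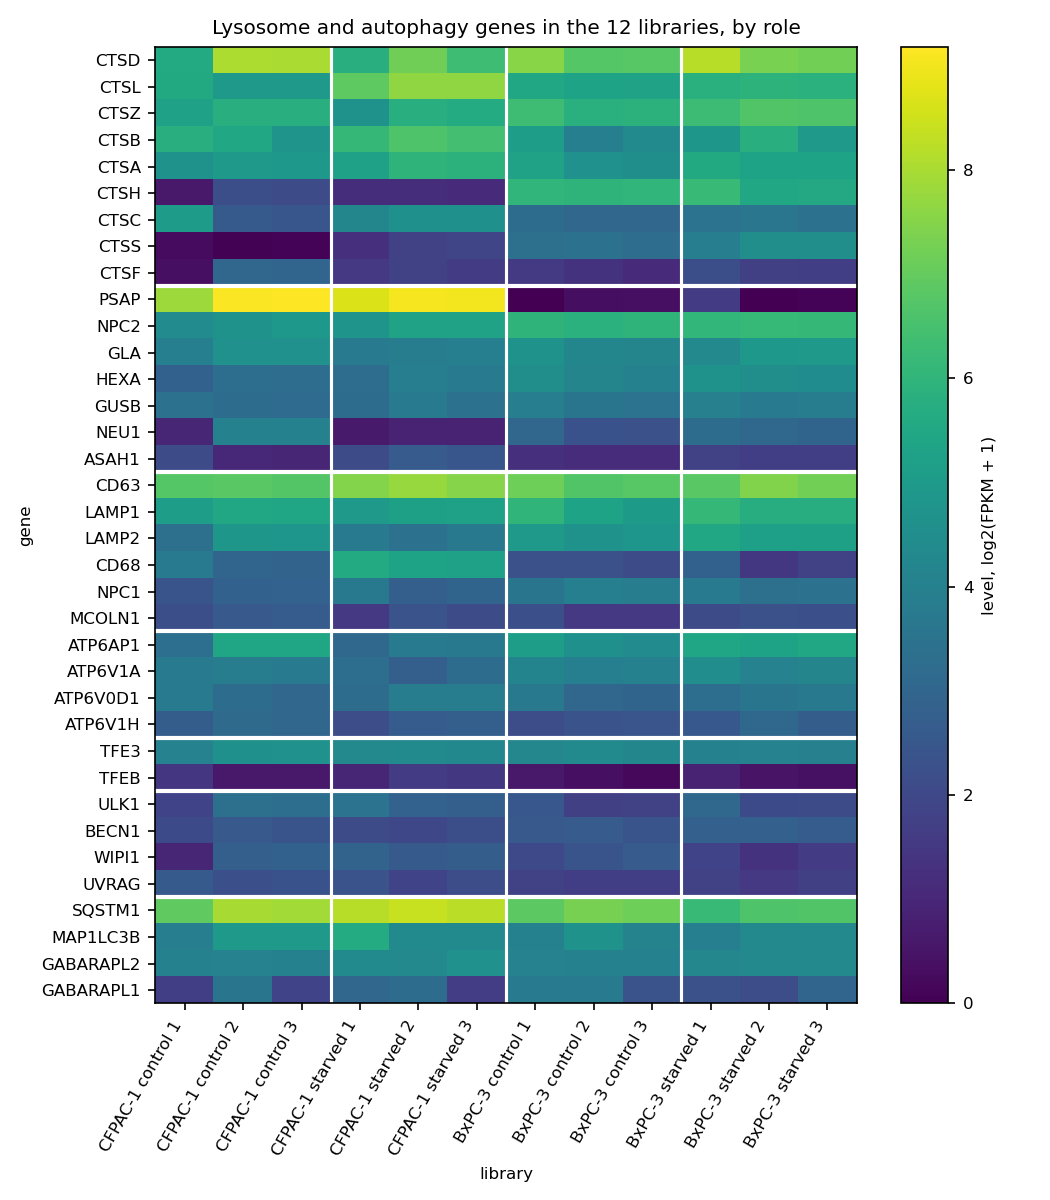
Heat map of log2(FPKM + 1) (colour, from 0) for the 36 genes (rows, by role and then by mean level) in the 12 libraries (columns, white lines between groups). PSAP is bright in the CFPAC-1 columns and dark in BxPC-3, CTSH and CTSS are the reverse, and CFPAC-1 control 2 and 3 differ from control 1 in CTSD, CTSF, CTSC and NEU1.

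In CFPAC-1, with all libraries, starved cells had more RNA of the cysteine cathepsins CTSL and CTSS and of the membrane protein CD68. In that fit 6 of the 36 genes rose (16.7%, against 7.85% of all tested genes), 2 fell (5.56%, against 8.77%) and 28 were not called. The median difference was 0.20, against -0.092 over all tested genes. Without control 2 and 3, 3 rose (8.33%, against 1.06%), 0 fell and 33 were not called, with a median of 0.49 against -0.052. CTSL was the only gene of the 36 called in both. Of the other 7 calls with all libraries, those of CD68 and CTSS held in 19 of 20 alternatives each, CD63 in 13, CTSA and ATP6V1A in 12 each, ASAH1 in 11 of 19 and NEU1 in 7 of 20. The count moved with single libraries. It was 18 (10 up, 8 down) without control 1, and 3 without any 1 of control 2, control 3, starved 2 or starved 3. These counts were not set against all tested genes in the same fits. Starved and control values did not overlap for 9 genes that were higher (25.0%, against 14.0% of all tested genes) and 2 that were lower (5.56%, against 17.6%).

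Among the cathepsins, CTSL (cathepsin L, an endopeptidase; ENSG00000135047, GRCh38 chromosome 9, 87725519 to 87731393) stood at 46.9, 30.2 and 29.4 FPKM in CFPAC-1 control libraries 1 to 3 and at 120.0, 202 and 199 in starved ones. Every starved library was above every control, and control 1 was the nearest. The difference was 2.25 with a standard error of 0.24 (4.77-fold, adjusted p = 0.000597, limma); without control 2 and 3 it was 1.83 ± 0.29 (SE, adjusted p = 0.0197, limma), and CTSL was called in 20 of 20 alternatives. The difference was 1.34 within library number 1 and 2.71 within numbers 2 and 3. Its close relative CTSV stood at 0.702 to 3.27 FPKM, far below CTSL. CTSS (cathepsin S, best known from antigen-presenting cells; chromosome 1, 150730196 to 150765957) stood at 0.208, 0.0347 and 0.0602 FPKM in controls and at 1.42, 2.46 and 2.74 in starved libraries. The groups did not overlap, at a low level throughout. Its difference was 1.52 ± 0.22 (SE, adjusted p = 0.00259, limma), and 1.38 without control 2 and 3 (adjusted p = 0.0631). At these low levels the size depends on the offset: with 0.1 in place of 1 it was 3.57. The summed level of the 10 leukocyte markers was 0.712, 4.74 and 4.52 FPKM in these controls and 0.980, 4.20 and 4.43 in starved libraries, and overlapped. Its members pointed both ways: CD14 stood at 0.372, 4.22 and 3.97 FPKM in controls and 0.318 to 0.393 in starved libraries, and LYZ at most at 0.0309 in controls and at 0.107, 3.35 and 3.47 in starved ones. PTPRC was at 0 to 0.00578 FPKM in these 6 libraries, and the part of other cells in the CTSS result was not tested.

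CTSA (protective protein cathepsin A, a carboxypeptidase that also stabilises NEU1 and beta-galactosidase) stood at 24.9, 29.2 and 28.8 FPKM in CFPAC-1 control and 37.4, 61.0 and 58.4 in starved libraries, without overlap. It rose by 0.87 ± 0.24 (SE, adjusted p = 0.0322, limma) with all libraries and did not pass without control 2 and 3 (1.01, adjusted p = 0.163). CTSA shares 200 bases of chromosome 20 with PLTP on the other strand, which stood at 33.2, 0.331 and 0.389 FPKM in controls and 64.4 to 82.5 in starved CFPAC-1 libraries; without knowledge of strand their reads cannot be told apart there. CTSD (cathepsin D, the main aspartic protease) stood at 47.6, 266 and 260 FPKM in controls and 54.8, 146 and 79.9 in starved libraries. Control 1 was the lowest of all 6 and control 2 and 3 the highest, so its difference was -0.78 with all libraries (adjusted p = 0.374) and 0.84 without control 2 and 3 (adjusted p = 0.467). CTSF and CTSH, both cysteine cathepsins, changed sign in the same way, from -0.48 to 1.27 and from -0.47 to 0.56, and CTSC, which activates serine proteases of leukocytes, went from 1.12 to -0.56. In control 1 CTSC stood at 32.0 FPKM, against 5.10 and 4.42 in control 2 and 3 and 17.7 to 23.6 in starved libraries. CTSB, the abundant cathepsin B, was at 54.0, 43.1 and 26.2 FPKM in controls and 68.0, 100.4 and 84.7 in starved libraries, without overlap, but was not called (1.06, adjusted p = 0.0626). CTSZ differed by -0.22 and 0.12 in the 2 fits, neither called.

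Among the other lumenal proteins of CFPAC-1, NEU1 (the sialidase neuraminidase 1) stood at 0.998, 15.4 and 15.4 FPKM in controls and 0.598, 0.892 and 0.869 in starved libraries. Control 1 was close to the starved libraries and control 2 and 3 far above them. With all libraries NEU1 fell by 2.19 on the log2 scale (SE 0.64, adjusted p = 0.0398, limma); without control 2 and 3 the difference was -0.17 (adjusted p = 0.854). ASAH1 (acid ceramidase) stood at 3.32, 1.03 and 0.980 FPKM in controls and 3.38, 5.25 and 4.53 in starved libraries, a rise of 1.04 ± 0.27 (SE, adjusted p = 0.0280, limma) that became 0.30 (adjusted p = 0.547) without control 2 and 3. PSAP was abundant, at 229, 552 and 579 FPKM in controls and 415, 526 and 523 in starved libraries, which overlapped. The cholesterol carrier NPC2, the ganglioside-cleaving HEXA, the alpha-galactosidase GLA and the beta-glucuronidase GUSB differed by -0.54 to 0.54 with all libraries, and by -0.067 to 0.84 without control 2 and 3, and none was called.

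Among the membrane proteins, CD68 (a heavily glycosylated late endosome and lysosome protein used as a macrophage marker; ENSG00000129226, chromosome 17, 7579467 to 7582113) stood at 12.8, 6.94 and 6.64 FPKM in controls and 47.8, 38.9 and 37.1 in starved CFPAC-1 libraries. The groups were far apart. It rose by 2.16 ± 0.33 (SE; 4.46-fold, adjusted p = 0.00339, limma) with all libraries and missed the threshold without control 2 and 3 (1.61, adjusted p = 0.0897), the single alternative of 20 in which CD68 or CTSS lost the call. A non-coding gene, AC016876.2, shares 2558 bases with CD68 on the same strand. It stood at 6.82 to 12.2 FPKM in these libraries and at 4.045 to 11.25 FPKM in BxPC-3. Values of CD68 in either line, and differences that rest on them, are uncertain where reads are shared. CD63, a tetraspanin of lysosomes and exosomes, stood at 107, 114 and 105 FPKM in controls and 178, 216 and 182 in starved libraries, without overlap, and control 1 lay among the other controls. It rose by 0.81 ± 0.20 (SE, adjusted p = 0.0220, limma), and the difference was 0.83 without control 2 and 3, where it was not called (adjusted p = 0.166). LAMP1, LAMP2, the cholesterol transporter NPC1 and the cation channel MCOLN1 were not called in either fit; LAMP2 stood at 9.59, 27.8 and 27.2 FPKM in controls and 9.75 to 13.2 in starved libraries.

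Of the 4 proton pump subunits, 1 fell and 0 rose with all libraries, against 8.77% and 7.85% of all tested genes. ATP6V1A, the catalytic subunit, stood at 13.2, 13.8 and 12.4 FPKM in controls and 9.04, 5.94 and 8.38 in starved CFPAC-1 libraries, and control 1 again lay among the controls. ATP6V1A fell by 0.70 on the log2 scale (SE 0.18, adjusted p = 0.0283, limma), and the difference was -0.71 without control 2 and 3 (adjusted p = 0.197). ATP6AP1, an accessory subunit of the pump, stood at 9.15, 41.6 and 40.9 FPKM in controls and 7.48, 12.7 and 12.1 in starved libraries. As for NEU1, control 1 was near the starved libraries, and the difference was -1.19 (adjusted p = 0.0936) and 0.18 (adjusted p = 0.856) in the 2 fits. ATP6V0D1 and ATP6V1H were not called in either.

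The transcription factors themselves were not called in either CFPAC-1 fit. TFE3 stood at 16.0, 23.2 and 24.0 FPKM in controls and 19.2, 19.6 and 18.5 in starved libraries. TFEB was scarce, at 1.72, 0.555 and 0.541 FPKM in controls and 0.974, 2.07 and 1.78 in starved libraries. For each the groups overlapped. The differences were -0.12 for TFE3 and 0.46 for TFEB with all libraries, and 0.24 and -0.086 without control 2 and 3.

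Of all tested genes, 16.6% were called in CFPAC-1 with all libraries. Whether the 8 autophagy genes depart from that share was not tested. Of these 8, 0 were called there (4 initiation and nucleation genes, 4 ATG8 and receptor genes). Of the latter 4, 2 were at an unadjusted p under 0.05, against 4633 of all 12860 tested genes. SQSTM1 and WIPI1 rose without control 2 and 3. SQSTM1 (p62, the receptor for ubiquitinated cargo; ENSG00000161011, chromosome 5, 179806398 to 179838078) stood at 122.9, 249.2 and 241.0 FPKM in controls and 291, 339 and 303 in starved libraries. The groups did not overlap, and control 1 was the lowest. The difference was 0.67 ± 0.27 (SE, adjusted p = 0.0975, limma) with all libraries, and SQSTM1 rose by 1.33 ± 0.26 (SE, adjusted p = 0.0404, limma) without control 2 and 3. It shares 555 bases with MGAT4B on the other strand, which stood at 41.4 to 75.0 FPKM in these libraries. WIPI1, which binds the lipid PI3P on the growing membrane, stood at 0.979, 5.95 and 6.22 FPKM in controls and 6.56, 5.10 and 5.56 in starved libraries. Only control 1 was low, so WIPI1 rose against it alone (1.76 ± 0.28 SE, adjusted p = 0.0197, limma) and not with all libraries (0.54, adjusted p = 0.373). ULK1 followed the same pattern, at 2.60, 9.50 and 8.87 FPKM in controls and 10.2, 6.32 and 5.79 in starved libraries, and was called in neither fit (0.19 and 1.19). MAP1LC3B (LC3B) stood at 14.3, 30.3 and 29.6 FPKM in controls and 49.6, 19.5 and 19.6 in starved libraries, where starved 1 was high; the groups overlapped and it was not called (0.18 and 0.86). Its near copy MAP1LC3B2 stood at 0.793 to 2.87 FPKM in CFPAC-1. How reads that match both copies were assigned is unknown, so that level does not show how many reads are in question. MAP1LC3B also shares 8148 bases with FBXO31 on the other strand, which stood at 5.68 FPKM at most. GABARAPL2 was higher in each starved library (19.0 to 24.2 FPKM) than in each control (15.4 to 15.8) but not called (0.41, adjusted p = 0.0661). GABARAPL1 ranged from 2.14 to 10.7 FPKM with no order by group. BECN1 and UVRAG, of the lipid kinase complex, were not called (-0.22 and -0.25 with all libraries). BECN1 shares 8966 bases with PSME3 on the other strand, which stood at 10.96 to 31.34 FPKM over both lines. Without knowledge of strand, reads of BECN1 and PSME3 cannot be told apart there.

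**Figure D2:**
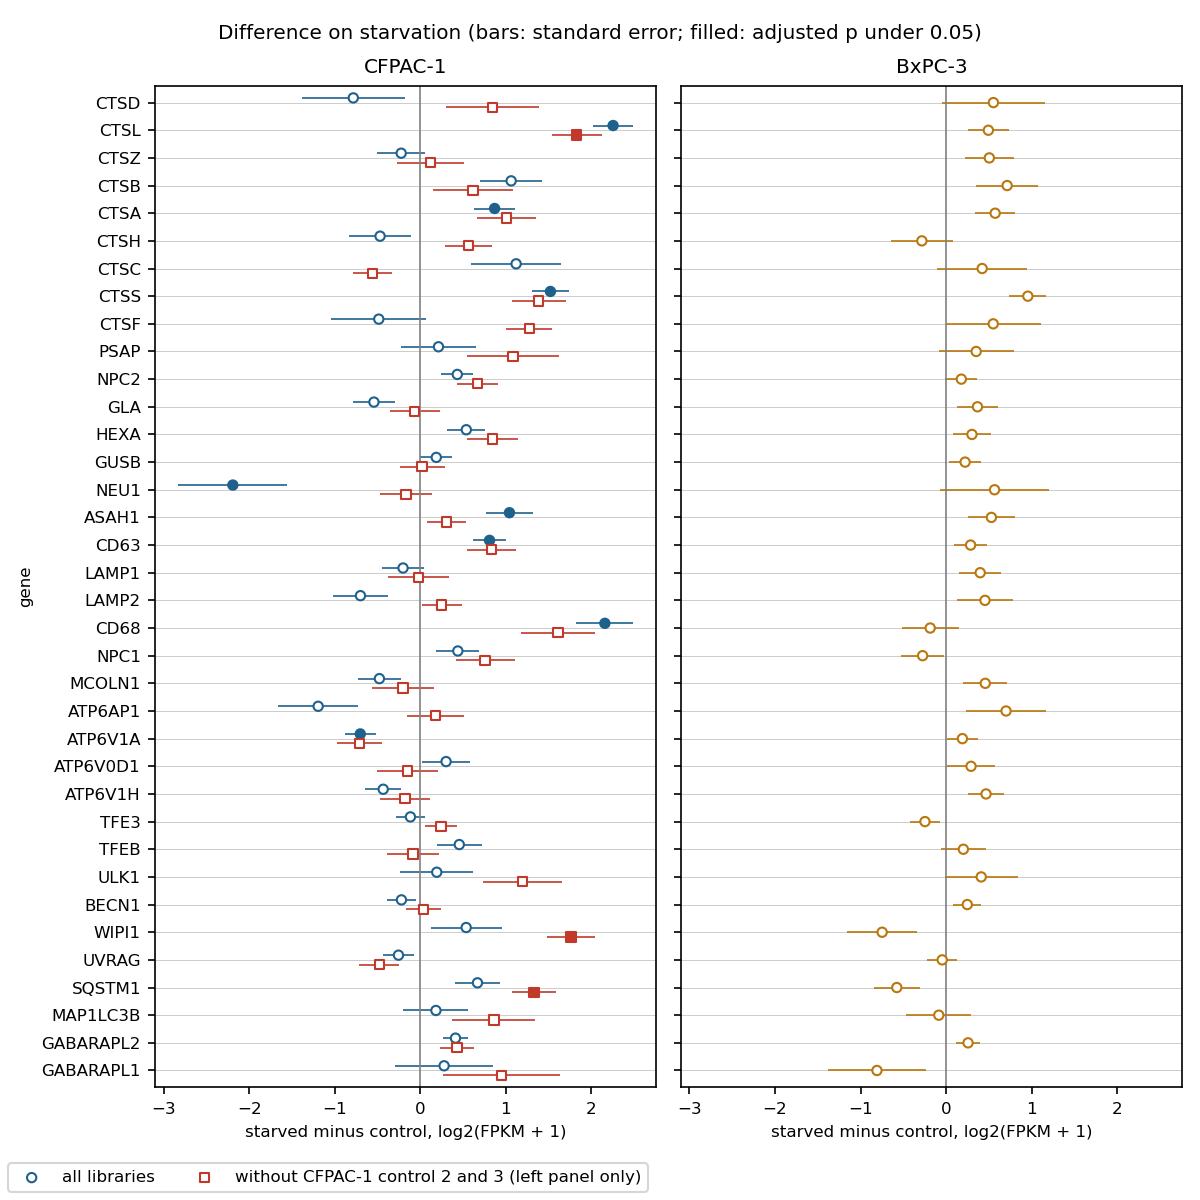
Starved minus control difference of mean log2(FPKM + 1) per gene (rows), with standard errors as bars, in CFPAC-1 (left, all libraries as circles, without control 2 and 3 as squares) and BxPC-3 (right, all libraries); filled symbols have an adjusted p under 0.05. CTSL is filled in both CFPAC-1 fits, NEU1 moves from -2.19 to -0.17 between them, and no symbol is filled in BxPC-3.

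In BxPC-3, most lysosomal genes were slightly higher after starvation, and none of the 36 passed the test. The count of calls was 0 by limma (0.0%, against 0.334% of all tested genes in either direction). At an unadjusted p under 0.05 were 2 of the 36, CTSS and CTSA, against 1096 of all 12860 tested genes. When CFPAC-1 control 2 and 3 were left out, the differences were the same and 0 were called. The median difference was 0.33, against 0.063 over all tested genes, and 27 of 36 differences were positive (75.0%, against 59.1%); across all alternatives with 36 genes, 26 to 29 were. Starved values lay above all control values for 12 genes (33.3%, against 12.4% of all tested genes) and below them for 3 (8.33%, against 4.84%). The 12 were CTSA, CTSC, CTSF, CTSL, CTSS, LAMP2, NPC2, ASAH1, ATP6V1H, ATP6AP1, GABARAPL2 and BECN1, and the 3 were TFE3, SQSTM1 and WIPI1. Within library number 1 the median was 0.18 and within numbers 2 and 3 it was 0.40, and 25 of 36 genes had the same sign in both.

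By role, 8 of 9 cathepsins, 7 of 7 other lumenal proteins and 4 of 4 pump subunits had a positive difference in BxPC-3, with medians of 0.55, 0.35 and 0.38. So did 4 of 6 membrane proteins (median 0.34), 2 of 4 initiation genes (0.10), 1 of 2 transcription factors (-0.024) and 1 of 4 ATG8 and receptor genes (-0.33). Of all tested genes 59.1% were positive. CTSS stood at 9.42, 9.78 and 8.78 FPKM in controls and 14.03, 22.07 and 22.04 in starved libraries. Starved 1 lay between the controls and the other starved libraries. The difference was 0.95 ± 0.22 (SE; 1.94-fold, unadjusted p = 0.00103, adjusted p = 0.154, limma). CTSS was the 1 gene called when starved library 1 was left out, alone or with control 1. The 10 leukocyte markers summed to 2.28, 2.56 and 2.20 FPKM in BxPC-3 control libraries and 6.84, 7.42 and 7.08 in starved ones, most of it CD14 (1.39 to 2.18 and 6.31 to 7.06). CSF1R went the other way, from 0.0658, 0.431 and 0.535 FPKM to 0.0482 to 0.0504, and the part of other cells was not tested; PTPRC, CD163 and AIF1 were at 0 to 0.00981 FPKM there.

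CTSA stood at 38.0, 24.2 and 22.6 FPKM in BxPC-3 controls and 46.2, 39.2 and 39.1 in starved libraries (0.57, adjusted p = 0.530), while the overlapping PLTP was at 54.4 to 93.8 and 109 to 129. CTSL stood at 44.6, 38.9 and 38.5 FPKM in controls and 55.3, 59.9 and 57.4 in starved libraries, narrow groups that did not overlap (0.49, adjusted p = 0.616). CTSD, at 186, 108 and 109 FPKM in controls and 289, 159.5 and 150.3 in starved libraries, was highest in library 1 of each group. Control 1 thus lay above starved 2 and 3 (0.55, adjusted p = 0.901). ASAH1 stood at 1.43, 1.24 and 1.22 FPKM in controls and 2.44, 2.26 and 2.23 in starved libraries, and NEU1 at 7.23, 3.98 and 3.81 and at 8.42, 7.66 and 6.83, where control 1 overlapped the starved range. ATP6AP1 stood at 34.4, 23.4 and 20.7 FPKM in controls and 42.5, 39.6 and 44.7 in starved libraries, and ATP6V1A at 16.7, 14.7 and 15.5 and at 15.7 to 21.7. CD63 stood at 142, 101 and 109 FPKM in controls and 112, 172 and 147 in starved libraries, which overlapped, and CD68 at 3.80, 3.85 and 3.34 and at 6.22, 1.78 and 2.41, where only starved 1 was high.

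The 3 genes whose starved BxPC-3 values all lay below the controls were SQSTM1, WIPI1 and TFE3. SQSTM1 stood at 115, 155 and 142 FPKM in BxPC-3 controls and 73.9, 100.4 and 102 in starved libraries (-0.58, adjusted p = 0.590). WIPI1 stood at 3.12, 4.18 and 5.20 FPKM in controls and 2.56, 1.53 and 2.10 in starved libraries (-0.75, adjusted p = 0.674). The highest starved library of WIPI1 was starved 1, and its lowest control was control 1. TFE3 stood at 18.2, 19.8 and 17.5 FPKM in controls and 15.2, 15.8 and 15.2 in starved libraries, a narrow gap (-0.25, adjusted p = 0.768). TFEB was at 0.544, 0.290 and 0.159 FPKM in controls and 0.877, 0.396 and 0.337 in starved libraries and overlapped. ULK1 stood at 4.57, 2.35 and 2.495 FPKM and at 7.48, 3.21 and 3.28, again highest in library 1 of each group, and MAP1LC3B at 15.6, 24.8 and 16.2 and at 14.4, 18.9 and 19.0. All of the 36 but CTSS and CTSA had adjusted p-values of 0.588 or more (limma).

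**Figure D3:**
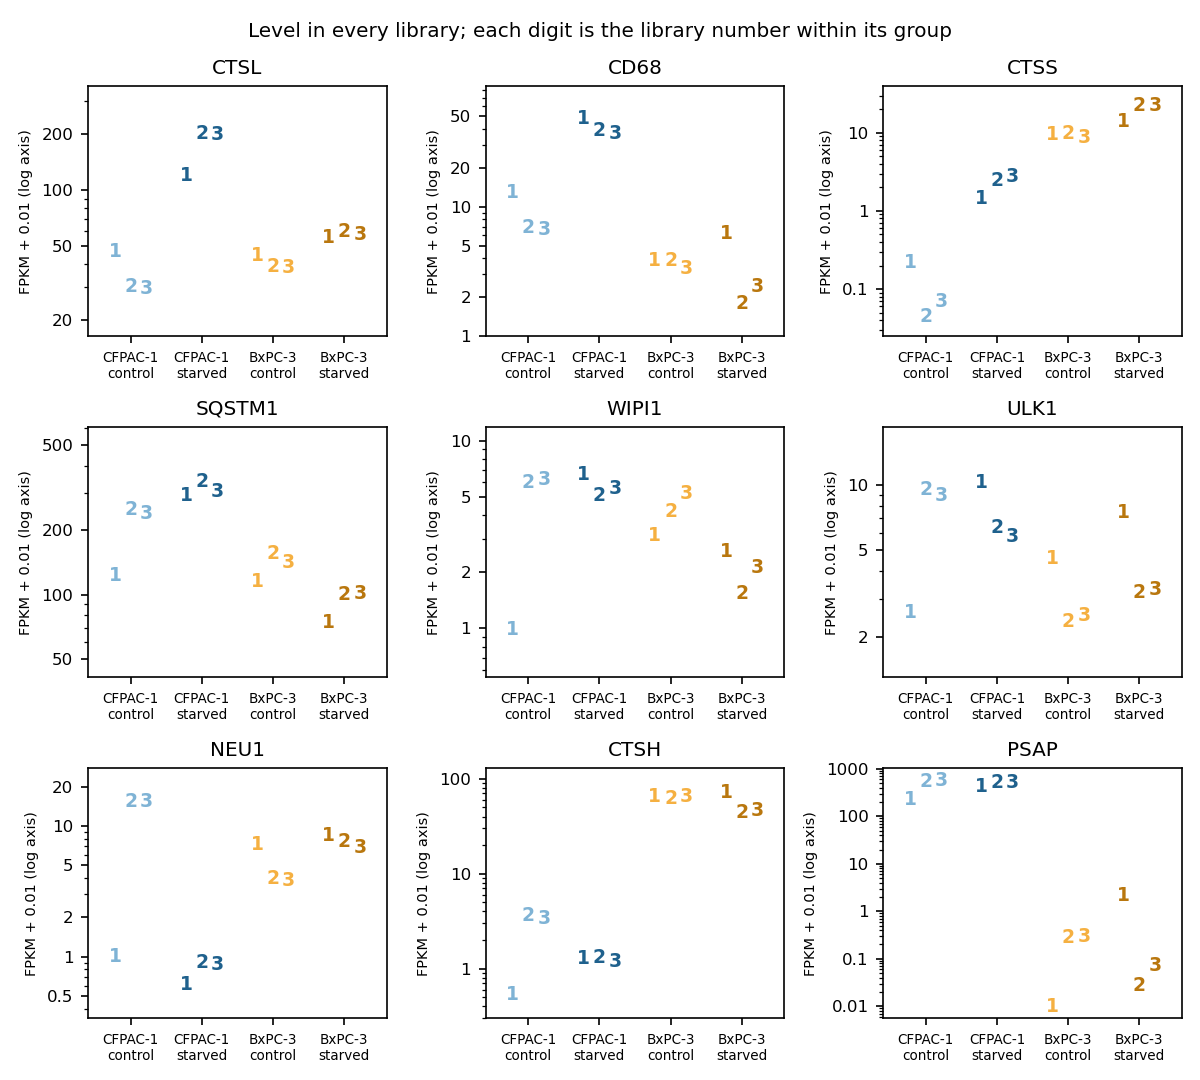
FPKM + 0.01 on a log axis for 9 genes in the 12 libraries, by group; each digit is the number of a library within its group. CTSL and CD68 of starved CFPAC-1 stand above all other groups, SQSTM1 and WIPI1 of BxPC-3 are lower in starved than in control libraries, and control 1 of CFPAC-1 lies far from 2 and 3 in WIPI1, ULK1 and NEU1.

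The changes of the lines were set against each other by the interaction term. With all libraries it was called for 2 of the 36 genes (5.56%), both lower in BxPC-3 (against 1.11% of all tested genes lower and 1.34% higher): CD68, at -2.34 ± 0.47 (SE, adjusted p = 0.0343, limma), and CTSL, at -1.76 ± 0.33 (SE, adjusted p = 0.0289, limma). Without CFPAC-1 control 2 and 3 the 2 genes called were others, again lower in BxPC-3 (against 0.249%): WIPI1, at -2.51 ± 0.35 (SE, adjusted p = 0.0397, limma), and SQSTM1, at -1.91 ± 0.32 (SE, adjusted p = 0.0466, limma). There CD68 and CTSL kept the direction at -1.80 and -1.34 but were not called (adjusted p = 0.157 and 0.132). With all libraries WIPI1 and SQSTM1 differed by -1.28 and -1.25 (adjusted p = 0.206 and 0.0912, limma). Over the alternatives the term was called in 1 of 18 for WIPI1 and 2 of 19 for SQSTM1. The calls of CD68 and CTSL held in 6 and 8 of 19 alternatives. Their terms kept the direction in all of them, at -2.75 to -1.80 for CD68 and -2.01 to -1.34 for CTSL. Leaving out any 1 of several libraries, of either line, was enough to lose the calls. The count was 0 without any 1 of control 2, control 3, starved 2 or starved 3 of either line. It was 1 without CFPAC-1 starved 1 and 15 without CFPAC-1 control 1. How many of all tested genes were called in those fits was not compared. For the genes called in neither fit a difference between the lines was not shown; over the 36 genes the standard error of the term was 0.20 to 0.90 with all libraries.

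The lines also differed in the level of these genes. In control culture 5 of the 36 were higher in BxPC-3 (13.9%, against 13.1% of all tested genes) and 4 lower (11.1%, against 13.1%). After starvation 12 were higher (33.3%, against 21.4%) and 7 lower (19.4%, against 14.8%); after scaling libraries to a common median the split was 10 and 9. Without CFPAC-1 control 2 and 3, the control comparison gave 10 higher (27.8%, against 13.8%) and 6 lower (16.7%, against 13.7%), and without control 1 alone it gave 14 calls in all. The counts after median scaling and without control 1 alone were not set against all tested genes. Called in both conditions, in the same direction, were 6 genes: CTSH, CTSS, NPC2 and HEXA higher in BxPC-3, and PSAP and CD68 lower. The call of CD68 in control culture held in 8 of 19 alternatives and those of the other 5 in 19 of 19. Genes given by value without meeting the rule for naming genes (CTSH, CTSC, CTSB, CTSF, LAMP2, NPC2, HEXA, GABARAPL1, GABARAPL2 and others of the 36) were chosen after their values were seen.

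CTSH (cathepsin H, an aminopeptidase that also processes surfactant protein) stood at 65.5, 62.2 and 65.7 FPKM in BxPC-3 controls and 72.1, 44.1 and 46.1 in starved libraries. In CFPAC-1 it stood at 0.529, 3.58 and 3.35 FPKM in controls and 1.28, 1.30 and 1.18 in starved libraries. The lines were separate in every library. The difference was 4.39 ± 0.36 (SE; 21.0-fold, adjusted p = 5.29e-06, limma) in control and 4.58 (23.8-fold) after starvation. CTSS was higher in BxPC-3 by 3.23 and 2.67, NPC2 by 1.27 and 1.02, and HEXA by 1.12 and 0.88. The other way, CD68 was lower in BxPC-3, with differences of -1.02 in control (adjusted p = 0.0429, limma) and -3.36 after starvation (adjusted p = 2.23e-05, limma). Both differences, and the interaction term of CD68, carry the limit of bases shared with AC016876.2.

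PSAP was listed at 0, 0.267 and 0.287 FPKM in BxPC-3 controls and at 2.13, 0.0171 and 0.0615 in starved libraries, against 229 to 579 FPKM in CFPAC-1. The gene, which supplies the activator proteins for several sphingolipid hydrolases, was thus at or near 0 in 5 of 6 BxPC-3 libraries. Whether these low values come from the cells or from the processing was not tested. The differences were -8.48 ± 0.44 (SE, adjusted p = 1.23e-07, limma) in control and -8.34 after starvation, and depend on the offset of 1. BxPC-3 starved 1, where PSAP was highest, also held 3.16 FPKM of IGFBP3 and 1.93 of IGFBP1, which stood at 0 to 0.0686 FPKM in the other BxPC-3 libraries and at 243 to 276 and 321 to 915 FPKM in starved CFPAC-1; their part in the PSAP value was not tested.

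After starvation 13 further genes were called that had not been in control culture with all libraries. NEU1, ATP6AP1, LAMP2, CTSZ, ATP6V1A, GLA, LAMP1 and BECN1 were higher in BxPC-3, by 2.27, 1.91, 1.62, 1.16, 1.13, 0.85, 0.71 and 0.65, and CTSL, SQSTM1, CTSB, WIPI1 and TFEB were lower, at -1.54, -1.76, -1.21, -1.15 and -0.75. Without CFPAC-1 control 2 and 3, NEU1, ATP6AP1, LAMP2, WIPI1 and TFEB were called in control culture too, WIPI1 in the other direction (1.37). The calls after starvation of WIPI1, LAMP1 and TFEB were the least steady, held in 5 of 18, 6 of 19 and 11 of 18 alternatives. Of these 13 genes, the interaction term was called for CTSL with all libraries and for WIPI1 and SQSTM1 without CFPAC-1 control 2 and 3. ATP6V1A, for example, stood at 5.94 to 9.04 FPKM in starved CFPAC-1 and 15.7 to 21.7 in starved BxPC-3, and LAMP2 at 9.75 to 13.2 and 35.2 to 42.8. The difference of BECN1 carries the limit of bases shared with PSME3.

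**Figure D4:**
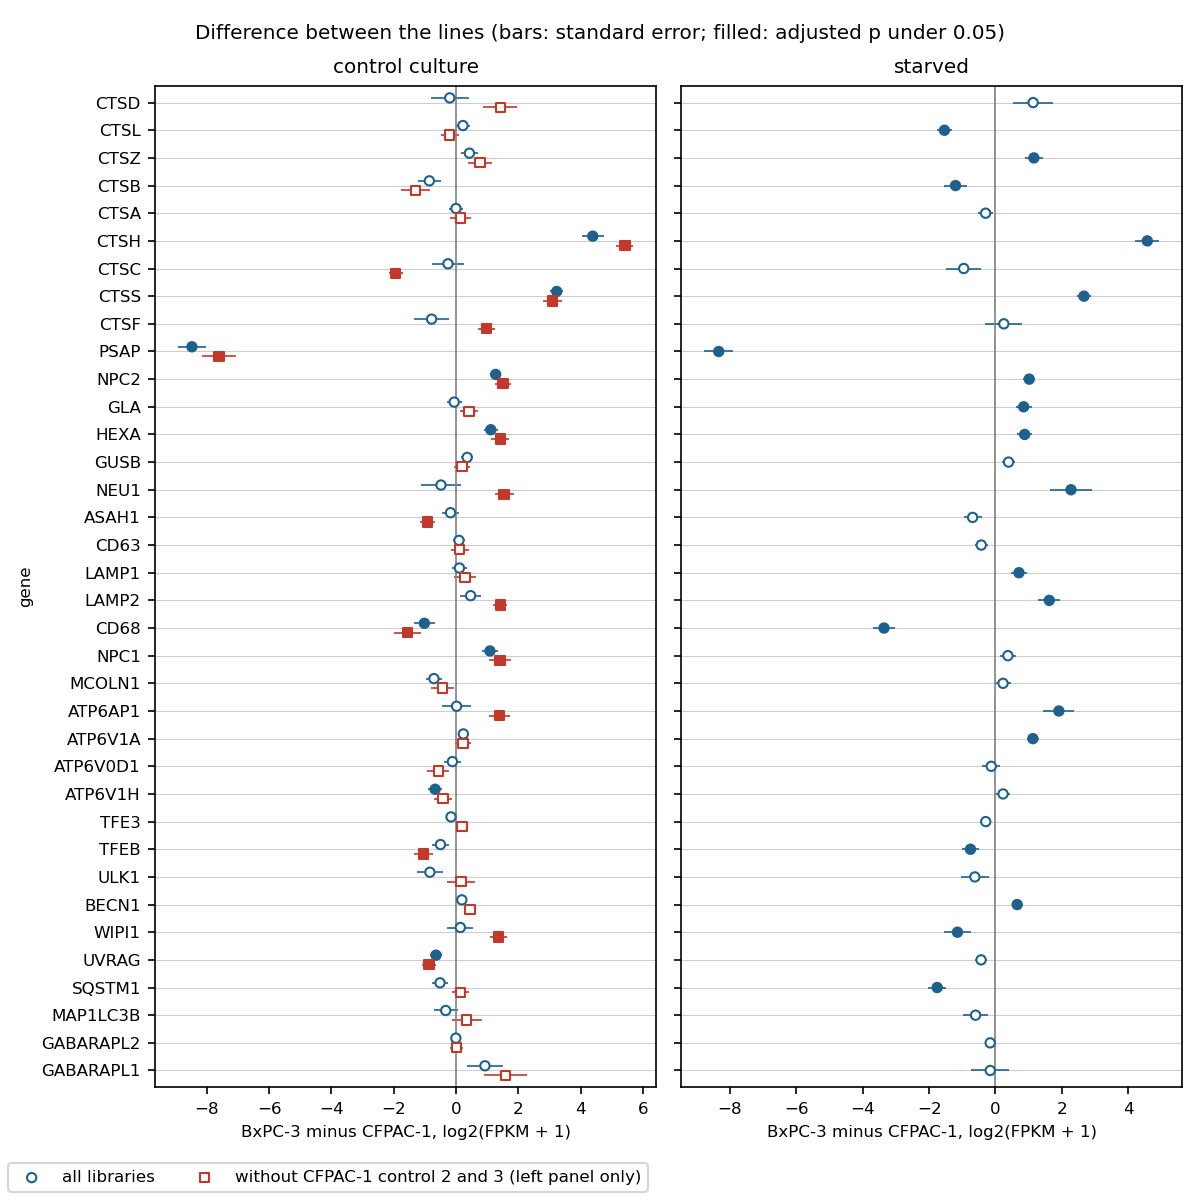
BxPC-3 minus CFPAC-1 difference of mean log2(FPKM + 1) per gene (rows), with standard errors as bars, in control culture (left, all libraries as circles, without CFPAC-1 control 2 and 3 as squares) and after starvation (right); filled symbols have an adjusted p under 0.05. PSAP lies near -8 and CTSH above 4 in both panels. Filled circles number 9 in control culture (25.0%, against 26.2% of all tested genes) and 19 after starvation (52.8%, against 36.2%). More squares than circles are filled in control culture.

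Of 191 other genes of the pathway, 168 passed the filter. In CFPAC-1, 17 of the 168 rose and 12 fell with all libraries (17.3% called, against 16.6% of all tested genes). Of all tested genes, 7.85% rose and 8.77% fell. The median of the 168 was -0.017, against -0.092 over all tested genes. Without control 2 and 3 it was 0.16, against -0.052. In BxPC-3, 1 rose and 0 fell (0.595% called, against 0.334% of all tested genes). The 1 was ACP5, which passed the filter only through the starved BxPC-3 libraries. At an unadjusted p under 0.05 were 19 of the 168, against 1096 of all 12860 tested genes. The median there was 0.18, and 132 of 168 were positive (78.6%, against 59.1% of all tested genes). By list, calls up and down in CFPAC-1 with all libraries numbered 6 and 2 of 38 other hydrolases, 1 and 3 of 18 membrane proteins, 0 and 1 of 13 pump subunits, 1 and 5 of 31 autophagosome-forming proteins, 4 and 0 of 14 cargo receptors, 1 and 1 of 27 regulators of mTORC1 and TFEB, 2 and 0 of 16 fusion proteins, 1 and 0 of 8 sorting proteins and 1 and 0 of 3 cathepsin inhibitors. The gene that rose in both CFPAC-1 fits was OPTN (optineurin, a receptor for ubiquitinated mitochondria and bacteria), at 6.33, 7.93 and 8.01 FPKM in controls and 28.7, 24.1 and 23.2 in starved libraries. Here control 1 lay near the other controls, and the difference was 1.64 ± 0.16 (SE, adjusted p = 0.000375, limma) and 1.84 without control 2 and 3 (adjusted p = 0.00679). In BxPC-3 OPTN stood at 8.56, 10.2 and 10.6 FPKM and at 11.5, 10.9 and 11.0, and the interaction term was called in both fits (-1.47 and -1.66).

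ACP5, the tartrate-resistant acid phosphatase, was the pathway gene that rose in BxPC-3, from 0.488, 0.448 and 0.298 FPKM in control to 2.16, 1.88 and 1.74 in starved libraries (1.05 ± 0.14 SE, adjusted p = 0.00876, limma). It was at 0.0132 to 0.253 FPKM in CFPAC-1. ACP5 reached 1 FPKM only in starved BxPC-3 libraries, so it passed the filter only through the group where it was high. Its calls in BxPC-3 and in the interaction term carry that limit. GM2A, the activator of ganglioside breakdown, stood at 43.6, 22.99 and 22.8 FPKM in BxPC-3 controls and at 80.4, 77.3 and 79.6 in starved libraries, without overlap. Its difference was 1.45 (adjusted p = 0.0673, limma), called when CFPAC-1 control 2 and 3 were left out (adjusted p = 0.0322). With all libraries the interaction term was higher in BxPC-3 for ACP5, GM2A, ATP6V0C (the proteolipid of the pump's membrane ring) and ATG9A (a lipid scramblase that seeds the growing membrane), and lower for OPTN and PLEKHM1 (an adaptor for fusion with the lysosome). ATP6V0C stood at 169, 207 and 205 FPKM in CFPAC-1 control and 109.9, 129.5 and 127 in starved libraries, and at 77.0 to 90.8 and 107 to 133.5 in BxPC-3, so its groups did not overlap in either line and pointed opposite ways. ATG9A stood at 12.7, 21.4 and 21.6 FPKM in CFPAC-1 control and 8.48 to 9.37 in starved libraries, and at 12.8 to 19.8 and 20.1 to 22.3 in BxPC-3. PLEKHM1 stood at 4.12, 2.43 and 2.59 FPKM in controls and 8.81, 7.69 and 8.11 in starved CFPAC-1 libraries, and at 2.59 to 3.31 and 2.17 to 3.08 in BxPC-3.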

How the data were processed

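The authors deposited 1 table of log2(FPKM + 1), as its header and its values (up to 13.8) show. Per the labels' protocols, TRIzol was used to extract total RNA and libraries followed Illumina's standard method. FastQC, StringTie and GRCh38 are named in the submitters' processing notes. For the aligner, annotation and strand use, the sources used here give nothing. FPKM was recovered by undoing the log2, and summed to 258299 to 315377 per library. Absolute depth is unknown: low values gave relative depths of 0.637 to 1, whole reads were not recovered, and no counting interval can be given.

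Genes of at least 1 FPKM in at least 3 of 12 libraries (12860) were fitted on that scale with limma 3.58.1 (R 4.3.3) as 4 group means with 8 residual degrees of freedom (6 without CFPAC-1 control 2 and 3), two-sided, with Benjamini-Hochberg adjustment over all tested genes and a threshold of 0.05. The fit was tested on simulated data with independent spread around a common mean per gene and changes in starved BxPC-3 only. No simulated library stood apart as CFPAC-1 control 2 and 3 do, so that test does not bear on the CFPAC-1 calls. Contrasts were starved against control in each line, their difference, and the lines against each other in each condition. Scaling libraries to a common median moved the median of all genes in the difference of changes from 0.16 to 0.0023, and in the starved comparison of lines from 0.12 to -0.013. Alternatives were an offset of 0.1, no filter, a mean of at least 5 FPKM, median scaling, limma's trend and robust settings, a replicate block, each line alone and each library left out. Coordinates are from GENCODE 29 on GRCh38.

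The 36 genes, the pathway and marker lists and the tests were chosen with earlier results of these data known. Values in every library are given for members called on starvation, the highest of each role, those under 1 FPKM in at least 3 libraries, and TFEB, TFE3, SQSTM1 and MAP1LC3B. The marker lists of fibroblasts and endothelium summed to 1.29 to 110.1 and 0.0746 to 0.621 FPKM; the first was mostly LUM in CFPAC-1, except in control 2 and 3, where it was mostly COL1A1, COL3A1 and THY1.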

Additional observations from a re-analysis of the deposited data

Results flagged for a closer look

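The change on starvation differed between the lines, by the interaction term of limma (BxPC-3 minus CFPAC-1, Benjamini-Hochberg adjusted p under 0.05), for 2 of the 36 genes with all libraries: CD68 at -2.34 and CTSL at -1.76. Each rose in CFPAC-1 and was not called in BxPC-3. The term was called in 6 of 19 alternatives for CD68 and 8 of 19 for CTSL. Without CFPAC-1 control 2 and 3 the term was -2.51 for WIPI1 and -1.91 for SQSTM1. Each was higher in the starved than in the lone control CFPAC-1 library and, in every library, lower in starved than in control BxPC-3. Over the alternatives the term was called in 1 of 18 for WIPI1 and 2 of 19 for SQSTM1.

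Of the other pathway genes, the term was called with all libraries for 6. It was lower in BxPC-3 for OPTN at -1.47 and PLEKHM1 at -1.35. It was higher for ACP5 at 0.87 (past the filter only through starved BxPC-3), ATP6V0C at 1.18, GM2A at 1.75 and ATG9A at 1.42. OPTN was the 1 of these 6 also called without CFPAC-1 control 2 and 3 (adjusted p = 0.0419).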

How the results depend on the processing

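Of 1005 single values of named genes under the alternatives, 834 kept their direction and their side of the threshold, 139 lost and 20 gained the call in the same direction, and 12 changed sign. The count of members called in CFPAC-1 (8) was 4 without the filter, 5 with the replicate block, 3 without control 2 and 3, 4 with the line alone, and 3 to 18 with each library left out; in BxPC-3 (0) it was 0 to 1 with each library left out and 1 without control 1 and starved 1 (chosen after seeing the data). For the difference of changes (2) it was 0 without the filter, 0 with the block and 0 to 15 with each library left out, and for the lines in control (9) it was 16 without CFPAC-1 control 2 and 3 and 6 to 14 with each library left out, and when starved (19) 11 without the filter and 14 to 23. The low counts without the filter were adjusted over more genes, and other causes were not tested. Apart from the fit without CFPAC-1 control 2 and 3, the counts under alternatives were not set against all tested genes. In CFPAC-1 the replicate numbers did not pair the samples (same-number r of deviations -0.080 to -0.020 over genes). In BxPC-3 same-number r was 0.054 to 0.151, and r of library 1 with the other numbers was -0.165 to -0.077. There library 1 of control and of starved deviated weakly together. With the block the line counts were 9 and 18. Signs changed without CFPAC-1 control 1 for WIPI1 on starvation of CFPAC-1 (-0.077) and, between lines in control, for LAMP2 (-0.0071), WIPI1 (-0.47), ATP6AP1 (-0.67), ASAH1 (0.19) and CTSC (0.58). Between lines they also changed for CTSF (0.97) and NEU1 (1.54) without CFPAC-1 control 2 and 3, NEU1 without control 2 (0.023) or 3 (0.026), WIPI1 without BxPC-3 control 3 (-0.00297) and ATP6AP1 without BxPC-3 control 1 (-0.19). With each library left out, the highest values of these were 0.86 for WIPI1 on starvation and, between lines in control, 0.71 for LAMP2, 0.46 for WIPI1 and 0.37 for ATP6AP1, and the lowest were -0.37 for ASAH1, -0.72 for CTSC and -1.49 for NEU1. Depth in reads is unknown; TFEB, PSAP in BxPC-3 and CTSS in CFPAC-1, the lowest values, depend most on it and on the offset.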
